A study of Mus musculus with 6 samples.

Results

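Small RNAs from the 5′ kilobase of L1Md_A, the stretch that holds the promoter of 1 of the young classes of mouse LINE-1 (L1) retrotransposons, were examined in E14 embryonic stem cells (ESCs) depleted of Tet1 or Tet2. Of the 13686 L1 copies on which reads were listed, 3092 were of the class L1Md_A, and a read was kept when its end nearest to the 5′ end of such a copy, measured on the strand of the copy, lay under 1000 nt from it. This left 9856 reads on 2562 of the 3092 copies (82.9%), out of 23255 reads in L1Md_A and 393511 in all L1 copies. The cells, of 129/Ola background and grown on gelatin without feeders in serum and LIF, all carried a lentiviral pLKO.1 vector, which held an shRNA with no target (shScr), 1 shRNA against Tet1 (shTet1) or 1 against Tet2 (shTet2), and all were kept in puromycin (1 µg/ml per the labels) from 24 h after infection and collected after 3 days. There were 2 libraries per condition. Nothing states whether the 2 libraries of a condition came from separate cultures, so that p-values measure the spread between these libraries only, which may be technical. The files hold no reads of Tet1 or Tet2 transcripts or of cell type markers, so neither the knockdowns nor the cell type could be checked here. RNA was taken from whole cultures, and fewer cells of a type cannot be told apart from less RNA per cell.

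L1 elements spread by reverse transcription of an RNA that starts at an internal promoter in their 5′ UTR. In mouse L1 this promoter is an array of repeated, CpG-rich units called monomers, followed by a short stretch of unique sequence and then by ORF1, which codes for an RNA-binding protein, and ORF2, which codes for the endonuclease and reverse transcriptase. TET enzymes oxidise 5-methylcytosine, and the DNA methylation of this promoter is a main means by which L1 is kept silent. Small RNAs are another: Dicer cuts double-stranded RNA, formed where sense and antisense transcripts meet, into products of 21 to 23 nt, and Piwi proteins of the germ line carry RNAs of 24 to 32 nt that often begin with U and, in their amplification cycle, pair over 10 nt at their 5′ ends. The study addressed whether small RNAs of L1 change when TETs are depleted.

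The sequences below include the study's primers for L1A promoters. The 10 read sequences of at most 30 nt were those found in most libraries and then with most reads (5 sense and 5 antisense). The sequence on either side of the commonest 3′ end of sense reads is also given. Where ORF1 could be placed, sense 4 and this 3′ end most often lay inside it, downstream of the promoter. All sequences are written 5′ to 3′ as DNA with 1 genomic position each (mm9), although most occur in many copies. Capitals mark the 7 last bases of a sense read that ends in 1 of the 2 commonest ways, or the 7 first bases of an antisense read that begins in the commonest way. Of the 14 positions given, 11 lay outside annotated genes and 0 in an exon. Those in introns were L1A_R in Pkhd1, sense 3 in Gm16070 and antisense 2 in Smap1.
primer L1A_F (chr1:4075402-4075421, copy on the minus strand): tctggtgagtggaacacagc
primer L1A_R (chr1:20564769-20564788, copy on the plus strand): agtctcgagtggagcggaag
sense 1 (chr1:45262685-45262699, minus strand): tgagactgcggtaca
sense 2 (chr15:17099109-17099130, minus strand): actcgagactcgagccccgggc
sense 3 (chr1:17695438-17695452, minus strand): acttgagaCTGCGGT
sense 4 (chr1:76309421-76309450, plus strand): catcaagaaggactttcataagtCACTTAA
sense 5 (chr1:123100569-123100594, plus strand): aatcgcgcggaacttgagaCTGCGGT
antisense 1 (chr1:97135252-97135267, plus strand): GTGTGGAcccttgcgg
antisense 2 (chr1:23892701-23892723, minus strand): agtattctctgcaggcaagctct
antisense 3 (chr1:96857018-96857032, plus strand): gtggagcagaaggga
antisense 4 (chr1:111308056-111308073, plus strand): gcgcgattggattggggc
antisense 5 (chr1:7478480-7478497, plus strand): gcgcgattggattggggt
upstream of the common 3′ end (chr1:6907965-6907984, plus strand): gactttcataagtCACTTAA
downstream of it (chr1:6907985-6908004, plus strand): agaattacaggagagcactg

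The genomic sequence of the copies had the features of an L1A promoter. A site of L1A_F with at most 2 mismatches was found in the 5′ kilobase of 2755 copies (89.1%). Over the whole length of a copy there were most often 2 sites (818 copies) or 3 (765 copies) and at most 19, and successive sites lay 208 nt apart in 46.7% and 198 to 201 nt apart in 47.6% of 6451 intervals, so that the sites mark repeated units. L1A_R, which primes from the other strand, had a site with at most 2 mismatches in 1940 copies. Without mismatch, L1A_R had a site in only 27 copies and L1A_F in 1929. An open reading frame of at least 300 codons, taken as ORF1, was present in 2249 copies and began within the first 1000 nt in 1742 of them (median 731 nt from the 5′ end); it was most often 357 codons (1077 copies) or 371 codons (868 copies) long and began 220 nt after the start of the last L1A_F site in 1766 of 2099 copies with both landmarks. The 5′ kilobase was rich in CpG, with a median of 31 CpG dinucleotides against 8.65 per kilobase in the rest of the copy, and more in 3074 of 3092 copies, and its median GC content was 53.4% against 39.3%. The 337 copies without an L1A_F site (10.9%) held 2.35% of the reads.

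The 5′ kilobase received 2853 and 2895 reads in the shScr libraries (replicates 1 and 2), 459 and 672 in the shTet1 libraries, and 2313 and 664 in the shTet2 libraries. The libraries list between 11566 and 128715 L1 reads, and since no total of a whole library was used, read numbers follow sequencing depth as well as RNA amount and were compared as shares. In every library 3 L1 copies outside L1Md_A held most of the reads, and these copies were left out of the share of all L1 reads. At these depths 3 reads, the most that a count of 0 allows, correspond to between 0.104% (shScr replicate 2) and 0.654% (shTet1 replicate 1) of the 5′ kilobase reads. Intervals below are 95% Wilson intervals and cover counting error only, as copies of 1 molecule made by PCR cannot be told from separate molecules. Between 97.1% and 100% of the reads of a library differed from all others in position, strand or length. Reads that match several copies were placed at random, so that alike sequences could differ in position. Counting each position, strand and length once thus need not remove PCR copies. Distinct sequences numbered 1931 of 2853 and 2295 of 2895 reads with shScr. They numbered 414 of 459 and 630 of 672 with shTet1, and 1858 of 2313 and 630 of 664 with shTet2.

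The 5′ kilobase took a larger share of the L1 reads in both shTet1 libraries than in either shScr library, while the shTet2 and shScr libraries overlapped. Of the L1 reads outside the 3 copies, the shScr libraries had 11.8% (11.4 to 12.2) and 12.9% (12.5 to 13.3) there, those of shTet1 15.1% (13.9 to 16.4) and 16.7% (15.6 to 17.9), and those of shTet2 12.9% (12.4 to 13.4) and 12.1% (11.3 to 13). Group means were 12.4% ± 0.766, 15.9% ± 1.13 and 12.5% ± 0.563 (SD, n = 2 each). The difference for shTet1, 3.52 percentage points, was larger than the larger SD, with 3.26 and 3.78 within replicate numbers 1 and 2, and the groups did not overlap (p = 0.333 by an exact permutation over the libraries, two-sided, below which 2 against 2 cannot go). For shTet2 the difference was 0.17 percentage points, within the SD, with values of opposite sign within the replicate numbers, 1.11 and -0.77 (exact two-sided p = 0.667). Taken over all listed L1 reads, the 3 copies included, the shares were 2.27% and 2.25% with shScr, 3.97% and 2.86% with shTet1 and 3.33% and 1.90% with shTet2.

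Within L1Md_A, reads were placed towards the 5′ end in all libraries, and most so in shTet1. The first 1000 nt are 16.8% of the summed length of the copies and held 42.4% of the L1Md_A reads. By library this share was 37.3% (36.3 to 38.4) and 42.9% (41.7 to 44.0) for shScr, 50.4% (47.2 to 53.7) and 49.1% (46.4 to 51.7) for shTet1, and finally 46.4% (45.1 to 47.8) and 41.5% (39.1 to 43.9) for shTet2. The shTet1 libraries lay above both shScr libraries, whereas the shTet2 libraries lay on either side of shScr replicate 2. The shTet1 mean, 49.8% ± 0.956, exceeded the shScr mean, 40.1% ± 3.89 (SD, n = 2 each), by 9.66 percentage points, which is more than the larger SD, with 13.1 and 6.24 within replicate numbers (exact two-sided p = 0.333). The shTet2 mean was 44.0% ± 3.52 (SD, n = 2), higher by 3.86, which is within the larger SD (exact two-sided p = 0.667). Its difference from shScr was 9.10 and -1.38 within replicate numbers, 1.11 without shScr replicate 1, 6.61 without shScr replicate 2, 1.37 without shTet2 replicate 1 and 6.35 without shTet2 replicate 2.

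**Figure D1:**
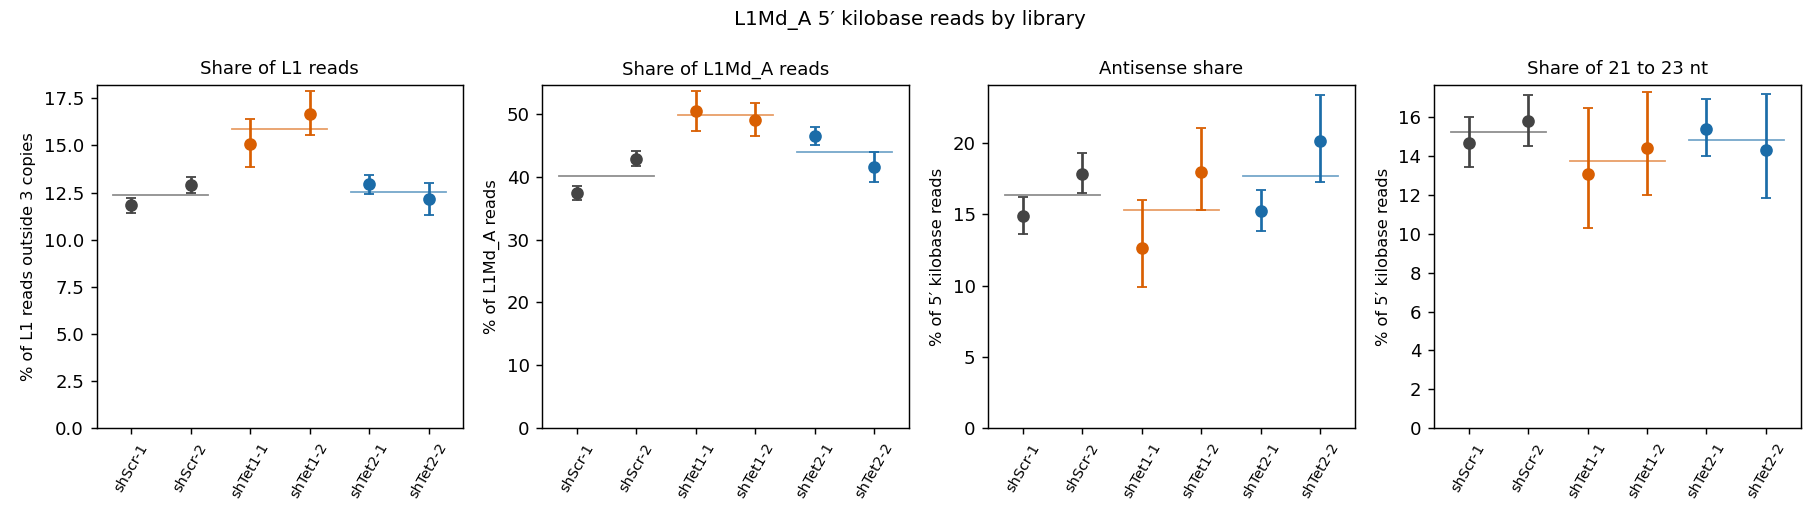
Share of the L1 reads outside 3 copies, share of the L1Md_A reads, antisense share and share of 21 to 23 nt reads (all in %) for the L1Md_A 5′ kilobase in each of the 6 libraries. Points are libraries with 95% Wilson intervals and lines are group means (n = 2). In the first pair of panels the shTet1 libraries (15.1% and 16.7%, and 50.4% and 49.1%) lie above both shScr libraries.

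When reads of all L1 classes were fitted together, the change of the 5′ kilobase was not called. The table held the 5′ kilobase and the rest of the copy for each class, and 35 of these features had at least 10 reads in at least 2 libraries. The L1Md_A 5′ kilobase stood at 14.54 and 14.62 log2 CPM with shScr, 14.72 and 15.17 with shTet1 and 14.67 and 14.55 with shTet2 (reads scaled to equal totals of the libraries by limma voom with TMM factors), so that both shTet1 libraries were above shScr and shTet2 overlapped it. In limma the estimate was a log2 fold change of 0.37 ± 0.23 (SE; adjusted p = 0.858) in shTet1 and of 0.03 ± 0.22 (SE; adjusted p = 0.979) in shTet2. None of the 35 features had a limma adjusted p under 0.05 in either comparison (0.0% called); at an unadjusted p under 0.05 limma gave 0 for shTet1 (0.0%) and 2 for shTet2 (5.71%), neither of them of L1Md_A. In shTet1, 25.7% of the features stood higher in each knockdown library than in each shScr library and 8.57% stood lower. The 5′ kilobases of L1Md_A, L1Md_T and L1Md_Gf were all among the higher ones. In shTet2, 11.4% of the features stood higher and 11.4% lower. The rest of the L1Md_A copy had limma log2 fold changes of -0.20 and -0.19, and the 5′ kilobases of the other young classes gave 0.18 and 0.06 (L1Md_T) and 0.48 and 0.24 (L1Md_Gf) for shTet1 and shTet2. The shTet1 value for the L1Md_A 5′ kilobase was 0.04 when each position, strand and length was counted once, 0.13 without shScr replicate 2, 0.14 without shTet1 replicate 2, 0.24 without shScr replicate 1 and 0.19 with a minimum of 20 reads. The other settings gave 0.26 (only the groups compared) to 0.56 (without TMM). Among them were 0.37 without the 3 copies with most reads, 0.42 without shTet1 replicate 1 and 0.49 in reads of 18 to 32 nt.

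Along the kilobase, most bins had a higher estimate in shTet1 than in shScr, and no bin passed the adjusted threshold. The same fit was made over bins of 100 nt by strand, with 360 bins of all classes tested, of which 20 were in the L1Md_A 5′ kilobase. For shTet1, 17 of the 20 had a positive log2 fold change (median 0.53 over the 10 sense bins and 0.36 over the 10 antisense bins), beside 49.4% of all bins tested (median -0.0056), and 10 of the 20 were higher in each shTet1 library than in each shScr library, beside 19.2% of all, and 0 were lower, beside 16.1%. For shTet2, 13 of the 20 were positive (medians 0.19 and 0.11) beside 48.6% of all, and 4 of the 20 were higher in each library, beside 18.6% of all, and 0 were lower, beside 17.5%. The bins are not independent of each other, since the same libraries, and largely the same copies, supply them all, and for shTet1 10 of the 20 were positive when every bin with a read was kept (1911 bins, median 0.95). None of the 360 bins had a limma adjusted p under 0.05 in either comparison (0.0% called). At an unadjusted p under 0.05 there were 12 bins for shTet1 (3.33%), which included 3 sense bins of the L1Md_A 5′ kilobase (200, 300 and 400 nt, with log2 fold changes of 0.64, 0.78 and 0.63), and 20 for shTet2 (5.56%), which included 0 of them.

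The 3 bins with most reads were the sense bins that start at 100, 300 and 0 nt, with 1385, 1124 and 927 reads. The sense bin at 300 nt stood at 11.26 and 11.40 log2 CPM with shScr, 12.25 and 11.99 with shTet1 and 11.83 and 11.39 with shTet2, with limma log2 fold changes of 0.78 ± 0.26 (SE; adjusted p = 0.989) in shTet1 and 0.29 ± 0.26 (SE; adjusted p = 0.734) in shTet2. The sense bin at 100 nt stood at 11.49 and 11.86 with shScr, 12.12 and 12.26 with shTet1 and 12.10 and 11.80 with shTet2, with log2 fold changes of 0.52 and 0.28. In the sense bin at 0 nt the values were 10.79 and 11.24, 11.75 and 11.39, and 11.74 and 11.16, with log2 fold changes of 0.55 and 0.45. In all 3 bins each shTet1 library stood above both of shScr, and shTet2 replicate 2 did not. In reads of 18 to 32 nt the shTet1 values of the bins at 300, 100 and 0 nt were 0.39, 0.33 and 0.23, and with every bin that had a read kept they were 0.34, 0.08 and 0.11. For shTet1, leaving out 1 library gave 0.68 to 0.92, 0.35 to 0.70 and 0.33 to 0.76, the lowest without shTet1 replicate 1 for the first and without shScr replicate 1 for the others. For shTet2 it gave 0.07 (without shTet2 replicate 1) to 0.50, 0.07 (without shScr replicate 1) to 0.42 and 0.16 (without shTet2 replicate 1) to 0.72, each highest without shTet2 replicate 2.

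Read density fell from the 5′ end inwards, and the strand alternated with position. Over all libraries the successive 100-nt bins from 0 held 1260, 1587, 1188, 1283, 794, 956, 817, 646, 768 and 557 reads. The antisense share of the first 6 bins was in turn 26.4%, 12.7%, 24.2%, 12.4%, 23.2% and 12.2%, and in each of the 6 libraries the bins starting at 0, 200 and 400 nt had a higher antisense share than the bin that follows each of them. This spacing is close to the 198 to 208 nt between L1A_F sites. Over the whole kilobase, antisense reads made up 14.9% (13.6 to 16.3) and 17.9% (16.5 to 19.3) of the shScr reads, 12.6% (9.90 to 16) and 18% (15.3 to 21.1) of the shTet1 reads, and 15.2% (13.8 to 16.7) and 20.2% (17.3 to 23.4) of the shTet2 reads. In each condition replicate 2 had the higher antisense share. The differences from shScr, -1.06 percentage points for shTet1 and 1.32 for shTet2, were within the larger SD of 3.80 and 3.51 (exact two-sided p = 1.000 and 0.667). Within replicate numbers 1 and 2 they were -2.26 and 0.148 for shTet1 and 0.322 and 2.32 for shTet2.

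**Figure D2:**
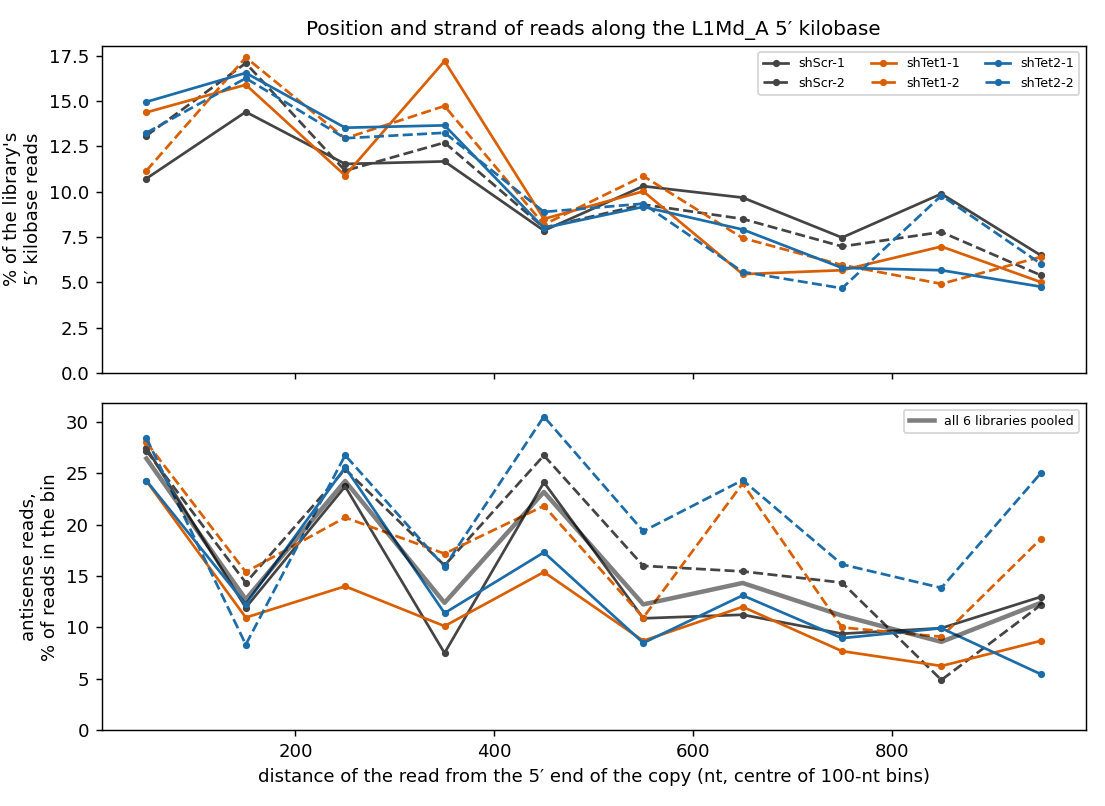
Upper panel, share of a library's 5′ kilobase reads (%) in each 100-nt bin against distance from the 5′ end of the copy (nt); lower panel, antisense reads as % of the reads of the bin, with all 6 libraries pooled in grey. Solid lines are replicate 1 and dashed lines replicate 2. The pooled antisense share alternates between 26.4%, 24.2% and 23.2% and 12.7%, 12.4% and 12.2% over the first 6 bins.

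In the 2099 copies with both landmarks, most reads lay in the monomer array. The stretch upstream of the last L1A_F site was 57.8% of the span and held 82.4% of 7988 reads, that from the site to ORF1 was 19.3% of the span and held 6.99%, and ORF1 within the kilobase was 22.9% and held 10.7%. Antisense reads made up 15.8%, 27.4% and 3.29% of the reads of these zones. The share in ORF1 was 16.6% (15.2 to 18.2) and 10.5% (9.36 to 11.8) for shScr, 6.56% (4.48 to 9.51) and 6.38% (4.62 to 8.74) for shTet1, and then 5.96% (4.97 to 7.12) and 9.60% (7.42 to 12.3) for shTet2. Each knockdown library was thus below both shScr libraries. The share upstream of the last site was 79.8% ± 4.04 in shScr, 86.3% ± 1.82 in shTet1 and 83.8% ± 4.49 in shTet2 (SD, n = 2 each).

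Within a monomer the 5′ ends of reads gathered at a few positions. Counted from the first base of the nearest L1A_F site, the sense reads began most often at +29 (276 of 5938 sense reads within 100 nt of a site), +38 (234), +34 (197), +45 (162) and +35 (123), and the antisense reads began most often at -27 (72 of 1288), -26 (55) and +41 (37). Some of the printed reads began at these positions, sense 5 at +34, sense 3 at +45, antisense 1 at -27, and antisense 4 and antisense 5 at +41. The others began elsewhere, sense 1 at +48, sense 2 at -93, sense 4 at +378, antisense 2 at +98 and antisense 3 at -85. In each library between 44.0% and 48.2% of the sense reads near a site began from 0 to 49 nt after its first base, and between 39.0% and 49.8% of the antisense reads began from 50 to 1 nt before it. There were 58 and 53 at +38 with shScr, 4 and 4 with shTet1 and 108 and 7 with shTet2, against 80 and 86, 5 and 24, and 49 and 32 at +29. Sense 1, sense 2 and antisense 1 were read in all 6 libraries. Sense 1 was carried by the 5′ kilobase of 2086 copies and was read 5 and 2 times with shScr, 5 and 1 with shTet1 and 3 and 1 with shTet2. Sense 3, a 15-nt read carried by 1421 copies, was read 14 and 7 times with shScr, 0 and 2 with shTet1 and 7 and 1 with shTet2. Antisense 1 was carried by 1090 copies and was read 8 and 6, 2 and 1, and 3 and 2 times. Antisense 4 and antisense 5 are of 1 length and begin alike, but were carried by 1907 and 26 copies. Reads at these positions are few per library and were not tested.

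**Figure D3:**
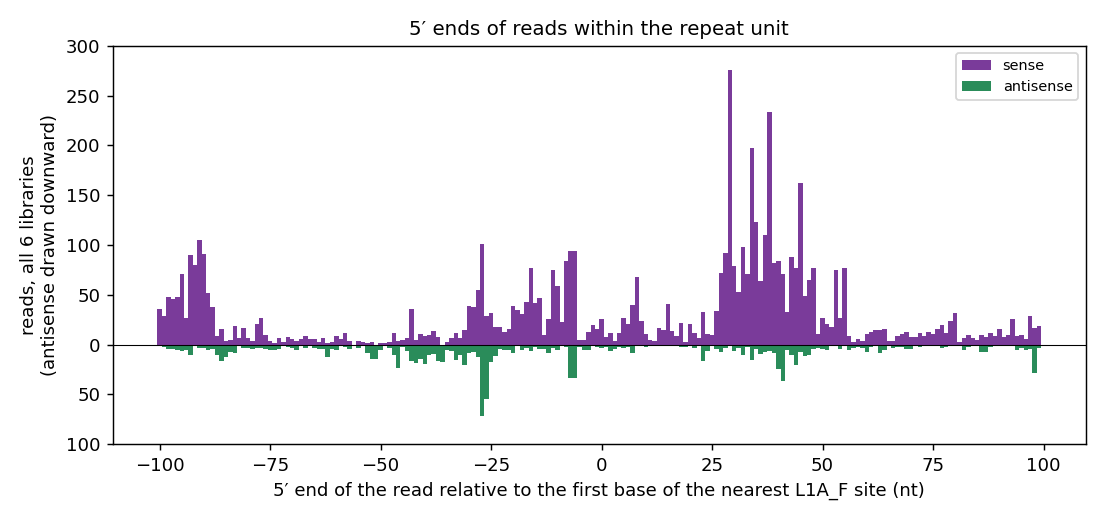
Number of reads (all 6 libraries) by the position of their 5′ end relative to the first base of the nearest L1A_F site (nt), sense reads upward and antisense reads downward. Sense 5′ ends are most frequent at +29 (276 reads) and +38 (234 reads) and antisense 5′ ends at -27 (72 reads).

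A single 3′ end inside ORF1 was shared by many sense reads and was picked as the commonest over all libraries pooled. It made up a larger share in each shScr library than in any knockdown library. The reads ended in CACTTAA (562 reads in 455 copies), as in sense 4, and had 5′ ends at many positions and lengths from 16 to 63 nt; sense 4 was read 8 and 5 times with shScr, 0 and 2 with shTet1 and 1 and 3 with shTet2. Where ORF1 could be placed, the end lay 188 nt into it for 402 of 417 reads, and the 20 bases up to it, printed above, were found in 2542 of the 3092 copies and within the 5′ kilobase of 1533. Of the sense reads of the 5′ kilobase, this end accounted for 11.9% (10.6 to 13.2) and 8.24% (7.20 to 9.42) with shScr, 1.75% (0.848 to 3.56) and 3.45% (2.22 to 5.32) with shTet1, and 1.58% (1.12 to 2.24) and 3.96% (2.61 to 5.98) with shTet2. Means were 10.1% ± 2.56, 2.60% ± 1.20 and 2.77% ± 1.68 (SD, n = 2 each), and neither knockdown overlapped shScr. The shScr libraries supplied 288 and 196 of the 562 reads, so picking the commonest end over pooled reads favoured an end high in shScr. In shTet1 replicate 1 ACCTCTG (3.49%) and in shTet2 replicate 1 CTGCGGT (3.26%) were more common. How many other ends separate the groups was not counted. This end was singled out as the commonest after the values had been seen, and so no test is given. The shares that follow rest on the same choice.

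The libraries also differed in read length, and the share was therefore taken within length classes as well. Among sense reads over 32 nt, 21.3% and 16.4% had the common 3′ end with shScr, 5.88% and 5.10% with shTet1 and 5.88% and 6.25% with shTet2. Among those of 24 to 32 nt it was 7.57% and 7.55%, 2.04% and 3.76%, and 1.39% and 5.34%. Over the sense reads of the whole L1Md_A copy, the share was 7.42% and 5.61%, 1.42% and 3.90%, and 1.15% and 2.34%, and in the sense reads of all other L1 classes 1.35% and 0.866%, 0.307% and 0.345%, and 0.186% and 0.598%, with each shScr library above each knockdown library in both length classes and over both sets of copies. The length classes are parts of the reads by which the end was picked, and the whole copy contains those reads, so these shares are not separate evidence. Counts were low with shTet1, at 3 and 10 reads over 32 nt and 2 and 5 reads of 24 to 32 nt. With shTet2 they were 23 and 11, and 7 and 7. Without the reads that had the common 3′ end the share of 5′ kilobase reads in ORF1 was 8.15% and 4.84% with shScr, 4.81% and 4.10% with shTet1 and 4.79% and 6.73% with shTet2, so that shTet2 then overlapped shScr and shTet1 lay only just below shScr replicate 2. The 5′ kilobase then held 10.9% and 12.3% of the L1 reads outside the 3 copies with shScr, 14.9% and 16.4% with shTet1 and 12.8% and 11.9% with shTet2. The next most common 3′ end of sense reads, CTGCGGT (265 reads in 235 copies; sense 3 and sense 5), made up 3.83% and 2.73%, 2.49% and 3.09%, and 3.26% and 3.02% of the sense reads, and did not separate the groups.

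**Figure D4:**
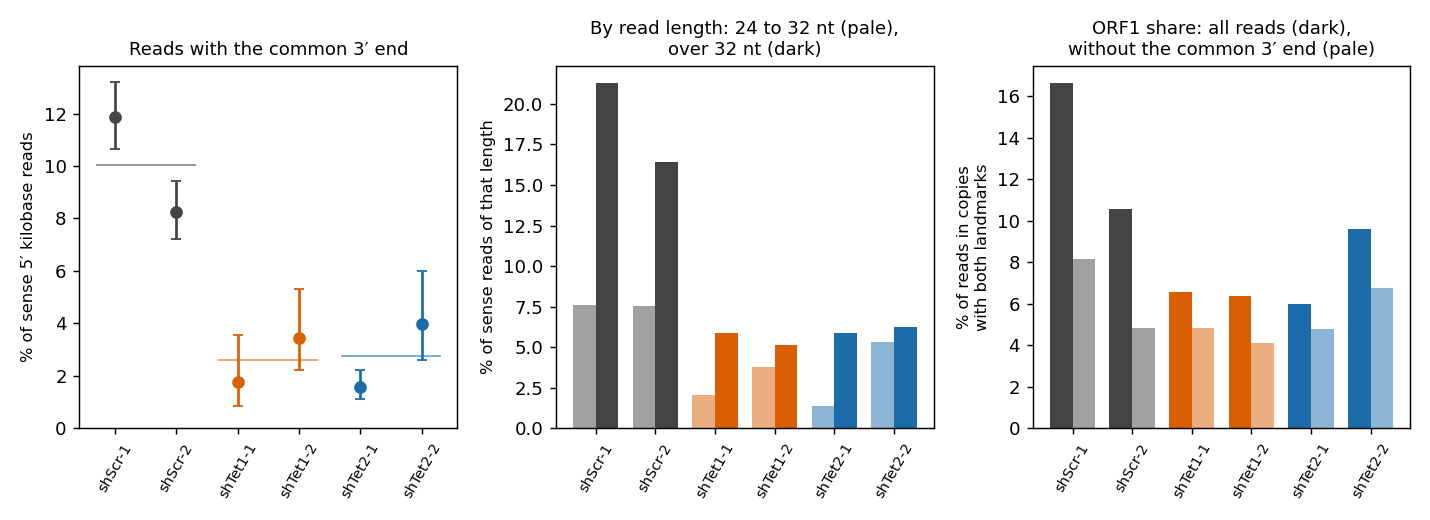
Left, share (%) of the sense 5′ kilobase reads that have the common 3′ end, by library, with 95% Wilson intervals and group means as lines (n = 2); middle, the same share among sense reads of 24 to 32 nt (pale) and over 32 nt (dark); right, share (%) of reads in ORF1 with all reads (dark) and without those reads (pale). The shScr libraries (11.9% and 8.24%) lie above all others (1.58% to 3.96%) on the left.

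The commonest 3′ end of antisense reads followed the replicate number rather than the condition. Reads that ended in GGGGGGA (53 reads of 15 to 19 nt in 3 copies) numbered 12 in shScr replicate 1, 2 in shTet1 replicate 1 and 39 in shTet2 replicate 1, and 0 in every replicate 2. Without them the antisense share was 14.5%, 12.3% and 13.8% in the replicate 1 libraries, all still below the replicate 2 libraries at 17.9%, 18% and 20.2%. Nothing states that a replicate number marks a shared preparation.

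The commonest read length also went with the replicate number, but the mean length did not. The commonest length was 15 nt in every replicate 1 and 18 nt in every replicate 2, and 9.19%, 8.33% and 9.34% of the replicate 2 reads were of 18 nt. No shorter reads than 15 nt were listed. That length led 16 nt by little in replicate 1 of shScr (161 against 160 reads) and shTet1 (47 against 46). Mean lengths were 29.8 and 27.2 nt with shScr, 23 and 28.7 nt with shTet1 and 24.8 and 28.6 nt with shTet2, with reads over 32 nt making up between 12.6% (shTet1 replicate 1) and 35.3% (shScr replicate 1). Sense reads were longer than antisense reads on average in each library, by little in shTet1 replicate 1 (23.1 against 22.5 nt) and by more in shScr replicate 1 (30.5 against 25.4 nt). Over the length classes, the replicates of each condition differed by more than counting error (chi-square tests on reads, p = 1.99e-24, 5.71e-16 and 1.04e-11 for shScr, shTet1 and shTet2, which treat reads as independent).

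Reads of Dicer length, 21 to 23 nt, took a share that was lower in each shTet1 library than in either shScr library, with overlapping intervals. They made up 14.7% (13.4 to 16) and 15.8% (14.5 to 17.2) of the shScr reads, 13.1% (10.3 to 16.5) and 14.4% (12 to 17.3) of the shTet1 reads, and 15.4% (14 to 16.9) and 14.3% (11.8 to 17.2) of the shTet2 reads, so that the intervals of all libraries overlapped. From shScr, the shTet1 mean fell by 1.48 percentage points, more than the larger SD of 0.964 (exact two-sided p = 0.333), and the shTet2 mean fell by 0.387, within the SD (exact two-sided p = 0.667). These values depended on the reads and copies counted. For shTet1 the difference was -0.441 in copies of at least 6000 bp, where the groups overlapped (exact two-sided p = 1.000), -3.55 in the first 500 nt, and -0.80 without shTet1 replicate 1. Among reads of 18 to 32 nt the share of 21 to 23 nt was 29.7% and 27.4% for shScr, 22.3% and 26.9% for shTet1 and 26.3% and 24.7% for shTet2, so that neither knockdown overlapped shScr, with differences of -3.96 and -3.07 percentage points (exact two-sided p = 0.333 for both). Reads of 22 nt alone made up 5.40% and 7.12%, 4.79% and 5.51%, and 5.45% and 6.33%. The share of 24 to 32 nt was 25.2% and 23% with shScr, 24.2% and 24.4% with shTet1, and 25.1% and 24.1% with shTet2, and differed by 0.191 and 0.505 percentage points, within the larger SD of 1.5 (exact two-sided p = 1.000 for both).

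**Figure D5:**
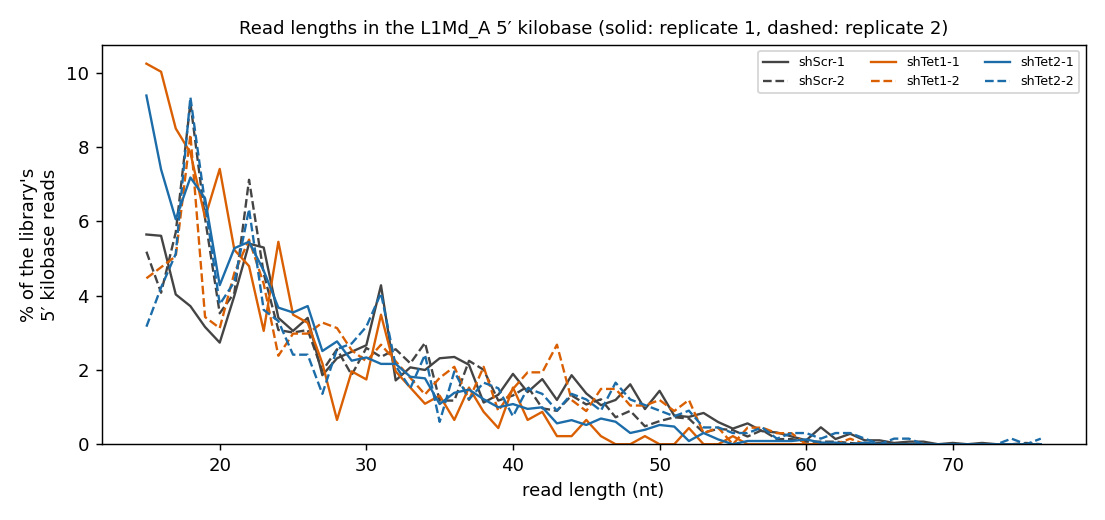
Share (%) of each library's 5′ kilobase reads by read length (nt), with solid lines for replicate 1 and dashed lines for replicate 2. The commonest length is 15 nt in each replicate 1 and 18 nt in each replicate 2.

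The features by which piRNAs are usually recognised, a first U and an overlap of 10 nt, were counted in reads of 24 to 32 nt. Pooled over libraries, 12.1% (10.8 to 13.6) of 2068 sense reads of this length began with T (U in the RNA) and 39.4% with A, and 24.9% (20.6 to 29.8) of 333 antisense reads began with T. Antisense reads of 21 to 23 nt began with T in 35.2% (30.04 to 40.8) of 301 reads. Of 10511 pairs of a sense and an antisense read of 24 to 32 nt whose 5′ ends overlapped by 1 to 20 nt, 610 (5.80%) overlapped by 10 nt, the 7th most frequent of the 20 overlaps, and the most frequent was 12 nt (721 pairs), with a median of 508.5 pairs. Single libraries had few pairs and differed, as 10 nt was the most frequent overlap in shTet2 replicate 2 (11 of 46 pairs), the 4th in shScr replicate 2 (51 of 712) and the 12th in shScr replicate 1 (47 of 1045), while shTet1 replicate 1 had 0 of 17. Pairs were counted by the genomic sequence around the 5′ end, over all copies and libraries. The pooled count thus also joined a sense read of 1 library with an antisense read of another, also across conditions. Within libraries there were far fewer pairs, 1045 and 712 with shScr, 17 and 90 with shTet1, and 478 and 46 with shTet2.

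The reads were spread thinly over many copies, and at equal depth the conditions overlapped. Reads were seen on 1639 and 1618 copies with shScr, 414 and 562 with shTet1 and 1401 and 577 with shTet2. At 459 reads, the depth of the smallest library, the number of copies with a read was 409.5 in both shScr libraries, 414.0 and 405.1 in shTet1, and 402.3 and 415.3 in shTet2. The groups overlapped, with means of 409.5 ± 0.0199, 409.5 ± 6.32 and 408.8 ± 9.21 copies (SD, n = 2 each), and the differences of -0.0042 and -0.70 copies were within the larger SD (exact two-sided p = 1.000 for both). Placement of a read on a copy was largely arbitrary, as 79.8% of the reads matched the 5′ kilobase of at least 2 L1Md_A copies without mismatch and 58.5% that of at least 100, whereas 5.74% matched 1 copy and 14.4% matched none exactly. The aligner put such reads at 1 of the positions at random, so that the number of copies describes the family and not the activity of single copies. The printed read sequences were also carried by 5′ kilobases of other L1 classes, from 1 copy (antisense 5) to 648 copies (sense 4). For antisense 3 these were more (25) than those of L1Md_A (18). Assignment of such reads to a class could thus be random as well, and the number of reads concerned was not counted.

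The 5 copies with most reads held 1.60% of the reads, and none of their 5′ kilobases overlapped an annotated gene. The copy at chr15:46719960-46725529 (plus strand) had 62 reads, 17 and 10 with shScr, 3 and 2 with shTet1 and 28 and 2 with shTet2; 27 of them were among the antisense reads that ended in GGGGGGA. The copy at chr5:57823620-57830195 (minus strand) had 34 reads, 9 and 3, 2 and 0, and 20 and 0, of which 25 had that end. Both copies were thus read mainly in replicate 1 libraries. The copy at chr10:22478717-22484099 (plus strand) had 22 reads, 7 and 6, 1 and 0, and 8 and 0, all sense, and 90.9% of them matched no other L1Md_A 5′ kilobase. The copies at chrX:60184444-60190807 (plus strand) and chr13:22635059-22642050 (minus strand) had 22 and 18 reads. In all, 28 copies were hit in all 6 libraries and 753 in 1 only.

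Among the 3092 copies, 624 (20.2%) had a 5′ kilobase within or overlapping an annotated gene, 421 on the opposite strand to the gene and 212 on the same strand, with genes on both strands at some copies, and 20 overlapped an exon. Copies in genes held 22.3% of the reads.

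The L1Md_A 5′ kilobase had a lower antisense share than the other young promoters in 6 of 6 libraries. The test used could give no smaller p with 6 libraries, and the adjusted value missed the threshold. The antisense share was 16.5% ± 2.71 (SD, n = 6 libraries), against 38.6% ± 5.54 in the 5′ kilobase of L1Md_T (4898 copies) and 45.2% ± 11.3 in that of L1Md_Gf (121 copies). Against the rest of the L1Md_A copy, at 14.7% ± 1.62, it was higher in 5 of 6 libraries. Reads of 21 to 23 nt were more frequent than in the rest of the copy, at 14.6% ± 0.947 against 9.25% ± 1.05 and in 6 of 6 libraries, and the mean length was shorter, at 27.0 ± 2.60 against 31.5 ± 3.58 nt. The 5′ kilobases of L1Md_T and L1Md_Gf had 14.9% ± 1.56 and 21.2% ± 6.59 of reads of 21 to 23 nt. L1Md_A was higher than these in 4 and 1 of 6 libraries (exact sign-flip permutation p = 0.8125 and 0.0938, adjusted 0.875 and 0.141). The mean length was longer than in L1Md_T (24.6 ± 1.62 nt) and L1Md_Gf (24.8 ± 1.93 nt), again in 6 of 6 libraries. In each of these comparisons with all 6 libraries on 1 side, the exact sign-flip permutation test over the 6 libraries gave p = 0.0312, the smallest possible, and 0.0625 after Benjamini-Hochberg adjustment over 12 tests. For the antisense share against the rest of the copy the exact p was 0.281 (adjusted 0.337). L1Md_Gf had between 14 and 84 reads per library, and the share of 24 to 32 nt missed the threshold in these tests (exact permutation p from 0.0938 to 0.875, adjusted 0.141 to 0.875).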

How the data were processed

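Small RNA-seq reads of 6 libraries were used. Trimming with Trim Galore 0.3.3 and alignment to mm9 with Bowtie2 2.1.0 are named in the submitters' processing notes. By the study's methods, reads under 15 nt were removed and 1 of several equal hits was taken at random. Tallies per class are thus firmer than tallies per copy, but reads that match copies of several classes can fall in any of these. The deposited files are lists with 1 line per read and hold its sequence, its position and the position, class and strand of its L1 copy; how copies were chosen is not given in the sources used here, and copies without any read do not appear. Reads were tallied per library and region, at depths of 459 to 2895 reads in the 5′ kilobase. Copy sequences, primer sites (up to 2 mismatches) and open reading frames were read from NCBIM37 (mm9), and genes from GENCODE for that build.

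Shares were compared by exact two-sided permutation over libraries, and class-by-part and bin tallies by limma voom (limma 3.58.1, R 4.3.3) with TMM factors, all 6 libraries in 1 model, a minimum of 10 reads in 2 libraries and Benjamini-Hochberg adjustment. On simulated tallies of the 360 bins, changes of 2 on the log2 scale were recovered in 84.6% of bins and changes of 1 in 7.57% at a dispersion of 0.05, and in 15.0% and 0.186% at a dispersion of 0.2. Both dispersions were set and not estimated from these libraries, so the recovery that applies to them is not known. Bins were named by adjusted p under 0.05 with no overlap or, as none passed, by most reads; copies and sequences by most reads (sequences first by the number of libraries). Tallies, tests and sequences were made with pysam 0.24.0, scipy 1.17.1 and pandas 2.3.3 under Python 3.11.15. The region, lists and tests were chosen with earlier results of these data known. The common 3′ end, the antisense 3′ end and the sign-flip tests were added after the values were seen.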

Additional observations from a re-analysis of the deposited data

How the results depend on the processing

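For shTet1 against shScr, the share of L1 reads and of L1Md_A reads in the 5′ kilobase stayed higher, and the share of 21 to 23 nt lower, under every setting run; the first ranged from 1.15 to 4.09 percentage points over 7 settings and from 2.72 to 4.32 with 1 library left out. Other shares changed sign (differences in percentage points). The antisense difference was 0.450 in reads of 18 to 32 nt for shTet1 and -0.121 in the first 500 nt for shTet2. The 24 to 32 nt difference was -0.164 in copies of at least 6000 bp (shTet1), -0.389 and -0.147 (shTet1 and shTet2) without the common 3′ end, a setting added after seeing the data, and -2.09 and -3.22 among reads of 18 to 32 nt. The number of copies differed by 3.52 and 1.91 (18 to 32 nt), 2.61 and 0.746 (first 500 nt), 3.08 and 2.72 (without the common 3′ end), and 0.575 for shTet2 when reads alike in position, strand and length were counted once. With 1 library left out, the ranges were -0.371 to 0.711 (share of L1 reads, shTet2), -3.74 to 1.63 and -1.16 to 3.80 (antisense, shTet1 and shTet2), -0.937 to 0.163 (21 to 23 nt, shTet2), -0.873 to 1.25 and -0.559 to 1.57 (24 to 32 nt), and -4.48 to 4.47 and -7.21 to 5.81 copies. These differences were within the SD in the report, and the cause of the changes of sign was not tested.

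The limma log2 fold change of the L1Md_A 5′ kilobase in shTet2 was -0.0060 without a filter, -0.16 with at least 20 reads and -0.15 when reads alike in position, strand and length were counted once, and -0.31 to 0.0883 with 1 library left out. L1Md_T gave -0.0240 (20 reads) and -0.0859 (counted once) in shTet1 and -0.15 and -0.12 in shTet2, with ranges of -0.0619 to 0.22 and -0.28 to 0.0849, L1Md_Gf -0.0252 to 0.39 in shTet2, and the rest of L1Md_A 0.0477 in shTet1 with 18 to 32 nt. The number of bins called in shTet1 was 235 without a filter, which adds bins with few reads, and 4 counted once, with 0 of them in the L1Md_A 5′ kilobase; without shTet2 replicate 2 there were 4 bins and 1 part called in shTet2 (range 0 to 4 and 0 to 1), and all other settings gave 0. Without TMM the median of all bins moved from -0.0056 to 0.11 in shTet1 and the share of positive bins from 49.4% to 59.7%; the median over all parts moved from 0.098 to 0.33 and the L1Md_A 5′ kilobase from 0.37 to 0.56.

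The replicate numbers gave correlations of deviations of 0.0747 to 0.462 over parts and 0.181 to 0.257 over bins; with 2 numbers and nothing stating what they mark, they were not taken as pairs. With the replicate block the share difference was 3.52 for shTet1, and the 5′ kilobase log2 fold change 0.36 for shTet1 and 0.01 for shTet2; 0 parts and 0 bins were called. The 2 libraries per condition and 459 to 672 reads in shTet1 limit all comparisons.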
